A study of Rattus norvegicus with 8 samples.

Results

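The Krüppel-like factors (Klf) are zinc-finger transcription factors, and 10 of them were described here in the hippocampus of adrenalectomized (ADX) rats infused with vehicle or corticosterone (CORT). Members were taken by gene symbol from a fixed list that was chosen with earlier results of these data known. Each of the 10 listed symbols had 1 transcript among the 16266 transcripts and 13272 symbols of the table. Whole hippocampi came from 8 rats that the labels give as Sprague-Dawley and 3 to 4 months old, whereas the study's methods name another strain, Lister hooded, and a younger age. All rats had lost both adrenal glands, had recovered on a low dose of corticosterone in drinking saline, and had been moved to saline alone before the experiment. Vehicle rats (4) received 0.45% saline for 30 min from ZT 2 (zeitgeber time, hours after lights on). CORT rats (4) received corticosterone-2-hydroxypropyl-β-cyclodextrin at 0.75 mg/mL in the same way, and tissue was taken 2 h after the infusion began. The vehicle is given as saline alone, so the cyclodextrin carrier and the hormone cannot be told apart. The comparison asks which transcripts differ after corticosterone with its carrier is given to rats without their own adrenal supply.

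Klf proteins bind GC-rich and CACCC-type sites through a conserved zinc-finger region near the C terminus, and the family is usually sorted by the co-regulators its N-terminal parts bind. Klf9, Klf10, Klf13 and Klf16 bind the Sin3 co-repressor, whereas Klf2, Klf4, Klf5, Klf6 and Klf7 work mainly with acetyltransferases, and Klf15 belongs to neither group. Klf9 and Klf15 are well-known glucocorticoid-induced genes in several tissues, and Klf9 is also induced by thyroid hormone in the developing brain.

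Levels are in FPKM, counts of fragments divided by the length of the transcript and the size of the library. The authors' table gives 1 value for each group and none for a single rat, so no spread between rats and no read depth stand behind the differences below. The authors' own test results were not used, and no test was computed here. Ratios are CORT over vehicle, taken on the log2 scale without a pseudocount. Transcripts at or past 1.5-fold were counted as called, a rule of size only. By that rule 4.21% of all transcripts were at least 1.5-fold higher with CORT and 4.91% at least 1.5-fold lower.

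The regions before the starts of Klf9 and Klf6, the called member with the highest level and the member with the lowest ratio, are shown first, as RefSeq gives them on GRCr8. They are the 250 bases up to the start, at chr1:230126396-230126645 on the plus strand for Klf9 and at chr17:69458479-69458728 on the minus strand for Klf6. The windows of Klf15, Klf4 and Klf7 overlap the annotated span of their own gene, so of these only 30 bases of Klf15 are shown, at chr4:124522899-124522928 on the plus strand. Capitals mark matches, on either strand, to any of the motifs searched except TATAAA.
Klf9: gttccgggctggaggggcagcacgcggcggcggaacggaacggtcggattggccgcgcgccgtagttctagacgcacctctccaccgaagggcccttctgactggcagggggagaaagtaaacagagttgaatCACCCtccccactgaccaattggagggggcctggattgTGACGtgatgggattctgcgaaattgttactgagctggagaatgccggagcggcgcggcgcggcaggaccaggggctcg
Klf6: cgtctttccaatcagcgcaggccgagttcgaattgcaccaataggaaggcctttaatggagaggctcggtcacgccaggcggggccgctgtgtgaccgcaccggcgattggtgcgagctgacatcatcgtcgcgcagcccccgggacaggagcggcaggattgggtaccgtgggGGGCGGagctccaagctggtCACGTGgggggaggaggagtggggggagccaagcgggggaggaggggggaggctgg
Klf15: cggcgcccgcggCGTCACGTGagcggtcgg

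The RefSeq table matched 6 of the 10 members, Klf4, Klf5, Klf6, Klf7, Klf9 and Klf15, by symbol, and the motifs were read in the same 250-base window of each. Neither the full glucocorticoid response element GNACANNNTGTNC nor the hexamer AGAACA that makes one arm of it had a match in any of the 6, against 0.373% and 17.5% of all 33469 windows. The letters CACCC, the core of the site that Klf proteins bind, were found in the windows of Klf5, Klf7, Klf9 and Klf15, and in 49.2% of all windows. In Klf9 they lie between 117 and 113 bases before the start. The GC box GGGCGG was found in Klf6 and Klf7 and in 30.5% of all windows. TGACG, the core of the cAMP response element, was found in Klf5, Klf9 and Klf15 and in 18.2% of all windows. The E-box CACGTG was found in Klf6 and Klf15 and in 5.59% of all windows. In Klf15 the E-box overlaps a reverse-strand TGACG match by 2 bases, which together make the capitals printed above. The windows of Klf4, Klf7 and Klf15 may hold transcribed bases, since they overlap their gene. TATAAA was found in Klf4, where it occurs on the reverse strand, and in 12.9% of all windows. The window of Klf15 was 77.2% G and C with 41 CG pairs, that of Klf9 63.6% with 23 and that of Klf4 43.2% with 8, against medians of 51.2% and 5 over all windows. A match is a description of these letters, and its absence says nothing about sites elsewhere.

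Of the 10 members, 2, Klf9 and Klf15, were called as higher with CORT, against 4.21% of all transcripts, and no member was called as lower, against 4.91%. The study itself names both as under circadian and corticosteroid control, drawing on these rats, so the count is only a description. Klf15, a regulator of amino acid breakdown and glucose production, was at 7.35 FPKM with vehicle against 14.6 with CORT, 1.98-fold higher and 0.99 on the log2 scale. Its transcript lies at chr4:122365092-122377659 of rn6. The ratio was the 320th highest of all transcripts. Among the 1627 transcripts of its decile of mean level, 0.492% had a ratio as high.

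Klf9, a repressor of transcription with roles in neuronal maturation, was at 25.7 FPKM with vehicle against 38.8 with CORT, in the locus chr1:240908482-240933198. It was 1.51-fold higher, so it passed the 1.5-fold rule narrowly. The log2 ratio was 0.577 with 1 FPKM added to both values and 0.573 when centred on the median of all transcripts. Both are under the 0.585 that 1.5-fold makes on the log2 scale, so Klf9 was not called in those settings. In its decile of mean level 1.35% of 1626 transcripts had a ratio as high. In absolute terms Klf9 differed most of the members, by 13.1 FPKM against 7.23 FPKM for Klf15.

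**Figure D1:**
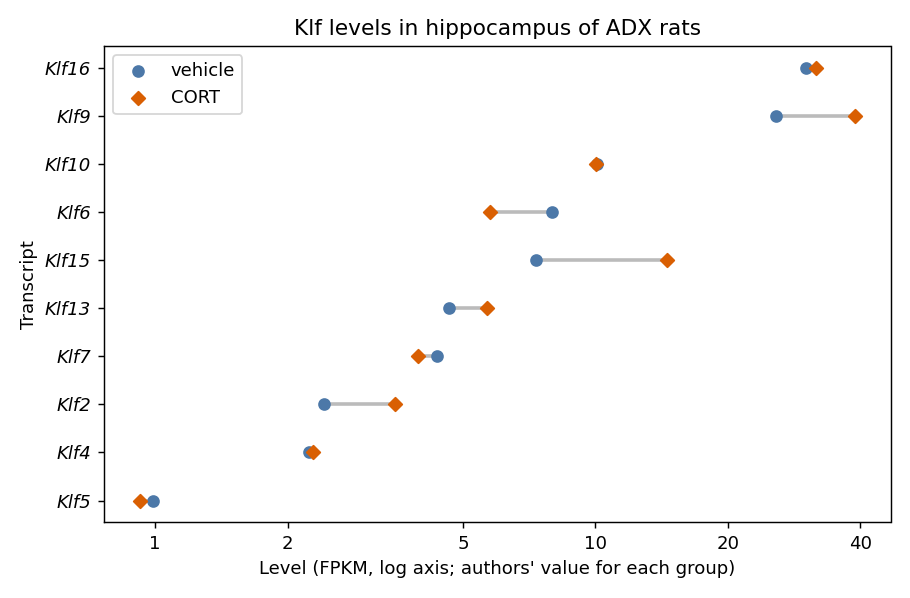
Level of each Klf transcript (rows, ordered by the vehicle value) in FPKM on a log axis, with the authors' group value for vehicle as a circle and for CORT as a diamond; no error can be drawn because no value per rat was given. Klf15 (7.35 to 14.6 FPKM), Klf9 (25.7 to 38.8 FPKM) and Klf2 (2.42 to 3.50 FPKM) show the widest gaps to the right. Klf6 (7.98 to 5.77 FPKM) shows the widest gap to the left.

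Of the other Sin3-binding members, Klf13, known for its control of chemokine expression in T cells, was at 4.66 FPKM with vehicle against 5.68 with CORT, a log2 ratio of 0.28. Its locus is chr1:124772595-124803363. Klf16, first described as a regulator of dopamine receptor genes, was at 30.1 and 31.7 FPKM at chr7:12006709-12016524, a log2 ratio of 0.07. Klf10, an early response gene of TGF-beta signalling, had nearly equal values of 10.1 and 10.03 FPKM at chr7:77156005-77162148, a log2 ratio of -0.01. The 4 Sin3-binding members thus ran from no difference in Klf10 to 1.51-fold in Klf9, with a median log2 ratio of 0.18. Their summed level was 70.6 FPKM with vehicle against 86.3 with CORT, 1.22-fold higher. Klf9 alone differed by 13.1 FPKM, which is most of the difference between these sums.

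The acetyltransferase-binding members lay on both sides of 0, with 2 higher and 3 lower with CORT and a median log2 ratio of -0.098. Their summed level was 18.0 FPKM with vehicle against 16.4 with CORT, 0.913-fold. Klf2, which maintains the resting state of endothelial cells, was at 2.42 FPKM with vehicle against 3.50 with CORT at chr16:19223086-19225037. Its ratio of 1.45-fold was the nearest below the 1.5-fold rule. Both values are low, and with 1 FPKM added the log2 ratio went from 0.53 to 0.40. In the decile of mean level that holds Klf2, 6.21% of 1626 transcripts had a ratio as high.

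Klf6, induced by tissue injury, had the lowest ratio of the members, with 7.98 FPKM in the vehicle group against 5.77 with CORT, a log2 ratio of -0.47. The change was -27.6% of the vehicle value, and 3.57% of the 1626 transcripts in its decile had a ratio as low. The locus of Klf6 in the table, chr17:67887938-67945037, spans 57.1 kb, the longest among the members, and FPKM depends on the transcript model used. Klf7, which promotes axon growth, was at 4.37 and 3.96 FPKM at chr9:70740479-70787913, a log2 ratio of -0.14. Klf4, one of the factors used to reprogram cells to pluripotency, was at 2.24 and 2.28 FPKM at chr5:72283312-72287669, a log2 ratio of 0.02. Klf5, linked to growth of epithelia and smooth muscle, was at 0.987 and 0.922 FPKM at chr15:83703790-83722921, a log2 ratio of -0.098, and is the 1 member under 1 FPKM in both groups. No other transcript in the table overlapped the locus of any member.

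**Figure D2:**
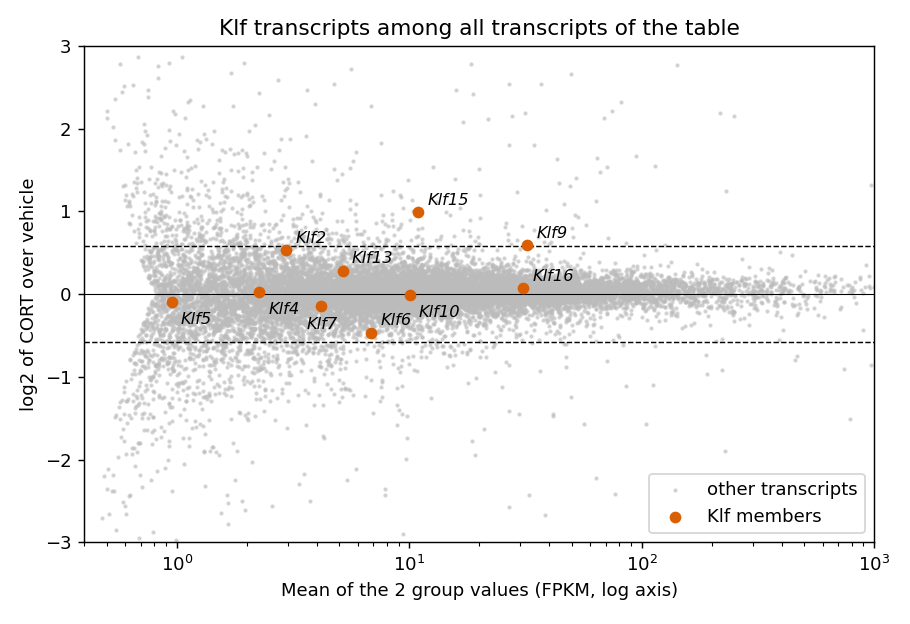
Each point is a transcript, with the mean of its 2 group values in FPKM on a log axis and its log2 ratio of CORT over vehicle on the other; orange points are the 10 Klf members, grey points the other transcripts, dashed lines mark 1.5-fold, and 118 transcripts fall outside the axes. Ratios spread widely at low levels, and Klf15 (0.99) and Klf9 (0.60) stand above most transcripts of their own level, while Klf2 (0.53) lies where the grey points are wider.

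Across the 10 members 6 were higher and 4 lower with CORT, and 55.0% of all transcripts were higher. The median log2 ratio of the members was 0.05, close to the 0.02 of all transcripts. At a lower threshold of 0.32 on the log2 scale, which is 25% above or 20% below the vehicle value, Klf2, Klf9 and Klf15 were called as higher and Klf6 as lower, beside 9.54% and 10.8% of all transcripts. At 2-fold no member was called in either direction, beside 1.92% of all transcripts as higher and 2.03% as lower. The remaining 6 members were within that lower threshold, and 4 of these lay within 0.1 of 0 on the log2 scale. Spread depended on level: 37.6% of transcripts in the lowest decile of mean level, which holds Klf5, were past 1.5-fold in either direction, against 2.58% in the sixth decile, which holds Klf15 and Klf10, and 2.09% in the ninth, which holds Klf9.

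In the vehicle group the order of levels was Klf16, Klf9, Klf10, Klf6, Klf15, Klf13, Klf7, Klf2, Klf4 and Klf5, spanning 30.5-fold. In the CORT group Klf9 stood first and Klf16 second, Klf15 stood in place 3 where it had been in place 5, and Klf10 and Klf6 followed. The last 5 places were the same in both groups. Without values per rat, it cannot be said which neighbours in either order differ beyond the spread between rats. Klf9 was 0.853 times the level of Klf16 with vehicle and 1.23 times with CORT. Klf15 was at 0.921 times Klf6 with vehicle and 2.53 times with CORT.

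The summed level of the 10 members was 96.0 FPKM with vehicle against 117 with CORT, 1.22-fold higher. Klf9 and Klf15 made up 95.6% of that difference. The other 8 members summed to 62.9 and 63.8 FPKM, 1.01-fold. Klf16 supplied 31.4% of the sum with vehicle and 27.0% with CORT, and Klf9 26.8% and 33.1%. The share of Klf15 was 7.66% with vehicle and 12.4% with CORT, and that of Klf6 8.31% and 4.92%.

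**Figure D3:**
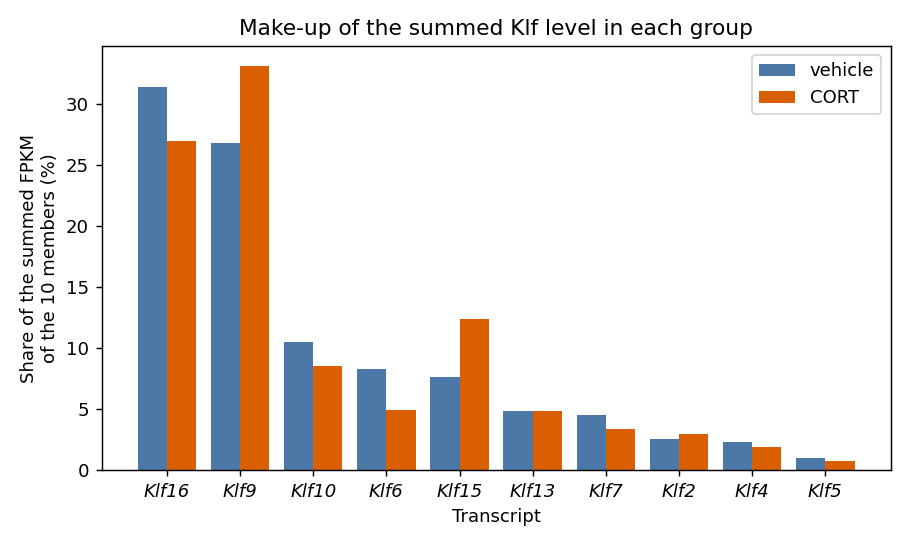
Bars give the share of each Klf transcript in the summed FPKM of the 10 members, in percent, for the vehicle (blue) and CORT (orange) group values, ordered by the vehicle share. The tallest bar is Klf16 with vehicle (31.4%) and Klf9 with CORT (33.1%), and the share of Klf15 differs from 7.66% to 12.4%.

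Of 17 other genes of the Klf and Sp family, 9 had a transcript, and none was past the lower threshold of 0.32 in either direction, with a median log2 ratio of -0.08. With each of the 13272 symbols standing for its transcript with the highest mean level, 5.88% of symbols were past that threshold as higher and 9.52% as lower, and the median was 0.02. Among them Klf3, a CtBP-binding repressor, was at 11.0 and 9.58 FPKM and Klf12, of the same kind, at 1.08 and 1.33 FPKM. Klf11, the close relative of Klf10, was at 2.88 and 2.58 FPKM, and Klf1, the erythroid factor, at 1.31 and 1.23 FPKM. Sp1, the founding member of the Sp branch, had the lowest ratio of the 9, with 4.96 and 4.17 FPKM and a log2 ratio of -0.25. Sp2 was at 6.83 and 6.58 FPKM, Sp3 at 8.56 and 8.45 FPKM, Sp4 at 3.65 and 3.44 FPKM and Sp9 at 0.697 and 0.807 FPKM. Values in each pair are vehicle first.

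In the lists that follow, too, a gene stands for its transcript with the highest mean level, and on that footing 1.92% of all symbols were at least 1.5-fold higher with CORT and 3.99% at least 1.5-fold lower. Of 14 co-regulators that Klf proteins bind, 13 had a transcript and none was past the same threshold, with a median log2 ratio of 0.06 and a range from -0.29 for Kat2b, an acetyltransferase, to 0.25 for Ctbp2, a co-repressor. Of 16 genes reported elsewhere as Klf targets, 13 had a transcript, 1 was past 1.5-fold higher and 1 lower, against these 1.92% and 3.99% of all symbols, and the median was -0.12. The ends were Cdkn1a, a cell-cycle inhibitor, at 6.61 FPKM with vehicle against 11.9 with CORT, and Ccnd1, a driver of the cell cycle, at 13.9 and 8.92 FPKM. Cdkn1a is also in the list of glucocorticoid targets.

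The glucocorticoid receptor Nr3c1 was at 23.2 FPKM with vehicle against 18.3 with CORT, and the mineralocorticoid receptor Nr3c2 at 24.1 and 30.2 FPKM, log2 ratios of -0.34 and 0.32. All 16 genes of a list of glucocorticoid targets had a transcript, and 13 were at least 1.5-fold higher with CORT and 1 at least 1.5-fold lower, against 1.92% and 3.99% of all symbols, with a median log2 ratio of 0.90. Klf15 at 0.99 lay above that median and Klf9 at 0.60 below it. The list was chosen with earlier results of these data known. The study names Per1, Sgk1, Tsc22d3 and Zfp189 of it as regulated by corticosteroid, drawing on these rats. Its counts and median are therefore no independent yardstick. The ends of the list were Pdk4, a brake on glucose oxidation, at 1.39 and 8.11 FPKM, and the metallothionein Mt1 at 156 and 52.7 FPKM. Of 14 immediate early genes, the fast transcriptional response to neuronal activity, 13 had a transcript, 6 were at least 1.5-fold higher and none that much lower, against the same 1.92% and 3.99%, with a median of 0.56. They ran from Npas4 at 1.06 and 0.865 FPKM to Egr2 at 0.312 and 1.18 FPKM. Klf10, Klf4 and Klf6, which are also known as early response genes, had log2 ratios of -0.01, 0.02 and -0.47.

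Lists of cell type markers differed between the group values as well, and in whole tissue fewer cells of a type and less RNA per cell cannot be told apart. Beside the counts of lower markers here and in the next paragraph, 45% of all transcripts were lower with CORT. That share is by transcript, whereas the markers are counted by symbol. The 10 markers of hippocampal neurons all had transcripts, and 7 were higher and 3 lower with CORT. These markers had summed levels of 2902 and 3026 FPKM and a median log2 ratio of 0.10. They ran from Prox1 at -0.28 to Zbtb20 at 0.81. Zbtb20 was low, at 1.55 and 2.72 FPKM, and its ratio was 0.55 with 1 FPKM added. Of 15 endothelial markers 14 had a transcript and 13 were lower with CORT, with a median of -0.25 and summed levels of 144 and 119 FPKM. They ran from Kdr at -1.01 to Flt1 at 0.01. Kdr was low, at 2.60 and 1.29 FPKM, and its ratio was -0.65 with 1 FPKM added. Klf2, known from endothelial cells, was higher by 0.53 on the log2 scale without a pseudocount. Of 12 microglial markers 11 were lower, with a median of -0.27 and sums of 400 and 335 FPKM, from Tyrobp at -0.56 to Tmem119 at 0.96. Among 8 oligodendrocyte markers 7 were lower, with a median of -0.23 and sums of 5405 and 4508 FPKM, from Opalin at -0.61 to Mal at 0.01. Klf6, at -0.47, was lower alongside these glial and vascular lists, and their part in its value was not tested.

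Among the 8 astrocyte markers 3 were higher and 5 lower, with a median of -0.09 and a range from Gfap at -0.91 to Slc1a2 at 0.14. Their sums were 2100 and 1636 FPKM. Gfap alone, at 970 and 517 FPKM, made up most of the difference between these sums. Markers of tissue beside the hippocampus had transcripts too. No transcript of the whole table, which the authors had filtered, was at 0, so a value above 0 sets no marker apart. Of 7 meningeal fibroblast markers with a transcript 6 were lower, with a median of -1.15 and sums of 80.2 and 50.8 FPKM, from Aldh1a2 at -1.44 to Dcn at 0.09. Of 8 thalamic and habenular markers 6 were lower, with a median of -1.13 and sums of 47.6 and 30.5 FPKM. Among those reaching 1 FPKM they ran from Chrna3 at -2.61 to Lhx9 at 0.02. Chrna3 was low, at 3.40 and 0.557 FPKM, and its ratio was -1.50 with 1 FPKM added. The 6 choroid plexus markers with a transcript summed to 6744 and 6734 FPKM with a median of -0.02, from Kcne2 at -0.20 to Clic6 at 0.13. Klf9 and Klf15 were higher while most of these lists were level or lower, and the part of tissue make-up in any member's ratio was not tested.

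**Figure D4:**
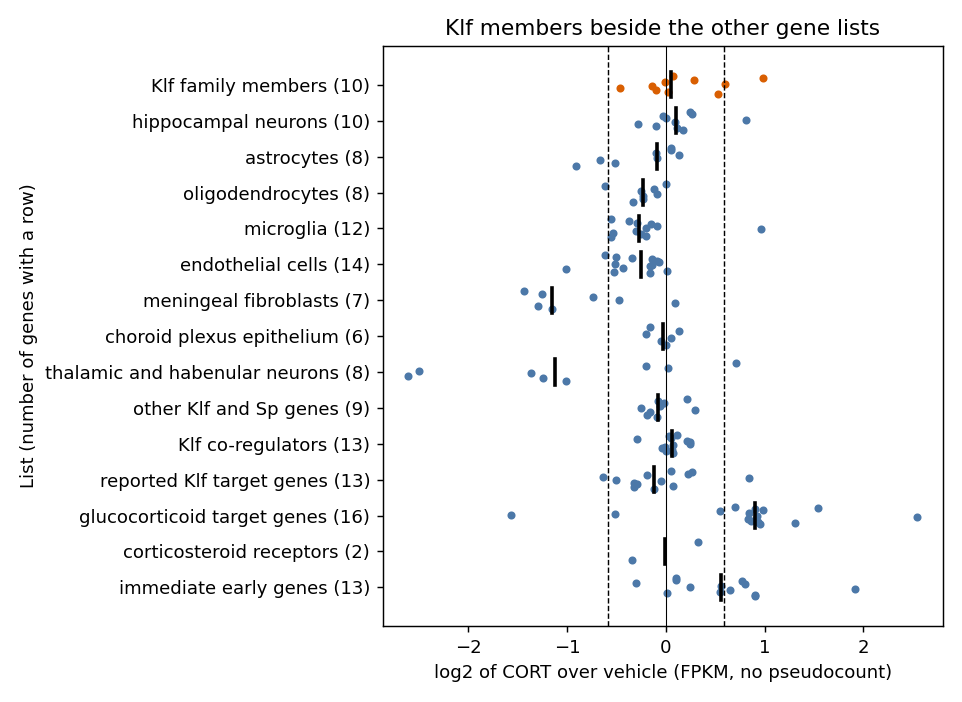
Each point is a gene's log2 ratio of CORT over vehicle (FPKM, no pseudocount), arranged by list with the number of genes that had a transcript; orange marks the Klf members, blue the other lists, the black bar is the median of a list and dashed lines mark 1.5-fold. The Klf members centre at 0.05, the glucocorticoid targets at 0.90 and the endothelial markers at -0.25.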

How the data were processed

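Hippocampal total RNA of 4 vehicle and 4 CORT rats was sequenced from stranded libraries. Per the labels, the authors used CASAVA 1.8.2, TopHat2 2.0.10 and Cuffdiff 2.2.0 on rn6. The deposited FPKM values are theirs, 1 per group for each Ensembl transcript, with geometric normalization between libraries and corrections for bias, multiply mapped reads and effective length. Transcripts with few alignments had been removed by them. Columns with the authors' log2 fold change, test statistic, p-value and q-value were not used. No value per rat or read depth is given, so no test, error or interval was computed, and FPKM levels of short or low transcripts are the least certain.

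Log2 ratios were computed with Python 3.11.15, numpy 2.4.6 and pandas 2.3.3 and checked on simulated data. Plots used matplotlib 3.10.9. The members and the 14 gene lists were chosen with earlier results of these data known, and lists are described by counts and medians only. Outside the family, the genes named were both corticosteroid receptors, all other Klf and Sp genes with a transcript, and the highest and lowest ratio of each other list among genes reaching 1 FPKM in a group. Alternatives were pseudocounts of 1 and 0.1 FPKM, filters at 1 FPKM, centring, other folds, and other ways to join transcripts. Promoter windows are from RefSeq (GRCr8), a different build from rn6.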

Additional observations from a re-analysis of the deposited data

How the results depend on the processing

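Of 9 alternatives, the number of Klf transcripts past the fold, 2 in the main setting and both higher with CORT, was 1 with a pseudocount of 1 FPKM and 1 when centred on the median of all transcripts, where Klf9 dropped under 1.5-fold. It was 4 with the lower threshold of 0.32 on the log2 scale, 3 higher and 1 lower, and 0 with a fold threshold of 2. It was 2 under the other alternatives. The median log2 ratio of the members moved by under 0.1 in the 7 alternatives that give one, all but the 2 other folds. Of 40 values for single members, from both pseudocounts, centring and summing, 1 moved by 0.1 or more, that of Klf2, to 0.40 with a pseudocount of 1 FPKM. No called member changed sign. With no spread between rats, 0.1 on the log2 scale served as the yardstick. Summing the transcripts of a symbol, or taking its highest one, could not change a member, since each has 1 transcript. Centring takes the same 0.02 from every member, so it could not move one by 0.1. The filters at 1 FPKM drop only Klf5, which was not called. Leaving out each rat was not run, since only group values were used. No paired analysis was possible because both value columns hold groups, not rats. The depth is unknown, which limits Klf2, Klf4, Klf5 and Klf7 most, at under 5 FPKM in both groups.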
